A study of Mus musculus with 16 samples.

Results

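Naive CD8 T cells of the liver-draining lymph node were selected from single-cell RNA counts, 554 cells of the 19543 cells in 3 lymph node libraries and of the 53595 cells in all 8 sequenced units of the series. A barcode was kept as a cell with at least 1000 RNA UMIs (unique molecular identifiers, each standing for 1 captured transcript), at least 500 genes and at most 10% of UMIs from mitochondrial genes. Members were chosen by at least 1 UMI of Cd8b1, which encodes the beta chain of the CD8 coreceptor, at least 1 UMI over the CD3 chain genes Cd3d, Cd3e and Cd3g, and no UMI of Cd4, Nkg7, Cxcr3, Cd79a, Siglech or Fscn1. There were 118 members at D0, 69 at D5/D6 and 367 at D19, or 1.80%, 1.10% and 5.43% of the cells of each library. Levels of the selecting genes are therefore a description, and so is every level in cells selected on RNA.

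The libraries came from male C57BL/6J mice on plain chow at D0 or on chow with 0.1% DDC, a hepatotoxin that injures the bile ducts. The study's mice were 6 to 12 weeks old. Hepatoduodenal and celiac nodes were pooled, and live singlets, Cd45+ Cd11c-, Cd45+ Cd11c+, Pdpn+ and Cd45- Pdpn- sorted fractions were combined in equal parts, so a share of all cells is not a share of the node. The library between the ends of the series is named for day 5 in one label and day 6 in another, and is called D5/D6. Each time was 1 library with no replicate, so no difference between times was tested. All intervals are exact 95% intervals that cover counting error only, and time cannot be told apart from library, sort or depth.

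Naive CD8 T cells are mature T cells that have not met their antigen. They recirculate between blood and lymph nodes, entering with the help of the chemokine receptor CCR7 and leaving through the sphingosine phosphate receptor S1PR1. Their resting state is held by transcription factors such as TCF1, LEF1, KLF2 and FOXP1 and by survival signals through the interleukin 7 receptor and the T cell receptor.

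Besides RNA, each lymph node library carried 11 antibody tags, and 3 of them bear on the identity of a T cell. Their barcodes, 15 bases each and shown whole because they are what was counted on the cell surface, read as follows from 5′ to 3′.
CD8a: tacccgtaatagcgt
CD4: aacaagacccttgag
CD3: gtatgtccgctcgat

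The tags, which the selection did not use, went with the label for most but not all members. The CD8a tag was above the CD4 tag in 84 of 118 members at D0 (71.2%, 62.1 to 79.2%), in 45 of 69 at D5/D6 (65.2%, 52.8 to 76.3%) and in 316 of 367 at D19 (86.1%, 82.1 to 89.5%). It was above in 0.871%, 0.339% and 0.654% of CD4 T cells, but in 66.2%, 59.6% and 62.0% of B cells, where both tags were low. This share therefore parts members from CD4 T cells, and the tag levels are needed to part them from cells with neither protein. The median CD8a tag per member was 1452, 1433 and 985 UMIs at D0, D5/D6 and D19, against 16, 12 and 5 in the CD4 T cells of the same libraries and 15, 12 and 4 in B cells. The CD3 tag had medians of 109.5, 128 and 44 UMIs in members and of 3, 3 and 1 in B cells, so members carried a T cell receptor complex on their surface. In the other 34, 24 and 51 members the CD4 tag was at or above the CD8a tag, against the label. None of these had a UMI of Cd8a, 16, 9 and 12 of them had one of Cd40lg, the CD40 ligand of helper T cells, and 34, 21 and 47 of them had been chosen by exactly 1 Cd8b1 UMI. Where a named change fell inside the 1.5-fold limit or a list median turned sign without them, the value without them is given for the results described.

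**Figure D1:**
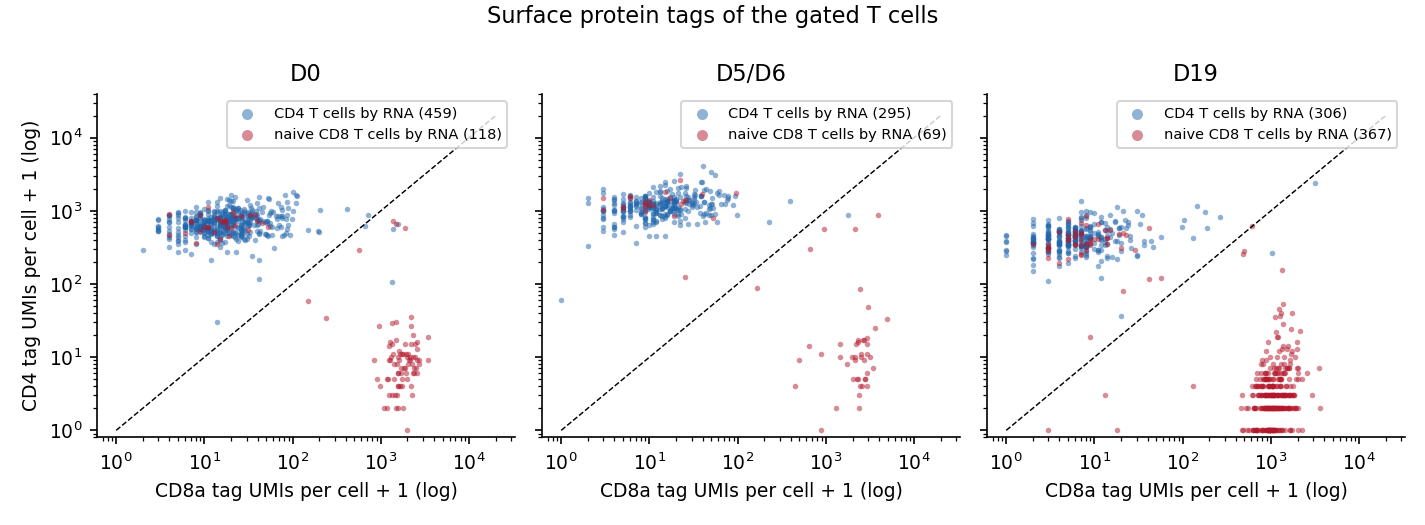
Surface tags of single T cells in the 3 libraries, with CD8a tag UMIs plus 1 on the horizontal and CD4 tag UMIs plus 1 on the vertical axis, both on log scales. Points are members (red) and CD4 T cells chosen by RNA (blue), and the dashed line marks equal tags. Most members form a group at high CD8a and low CD4, and 34, 24 and 51 of them lie on the other side of the line among the CD4 T cells.

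The thresholds of the rule differed in what lay on either side. Members with exactly 1 Cd8b1 UMI numbered 45, 27 and 90, and 24.4%, 22.2% and 47.8% of them had the higher CD8a tag, against 100%, 60.0% and 95.4% of the members with 2 UMIs, which numbered 9, 5 and 65. The gate on Nkg7, which encodes a granule protein of cytotoxic and NK cells, removed most of the cells that met the other conditions. Of CD8 T cells that met those conditions, 13.8%, 12.7% and 33.7% had no Nkg7 UMI. Just outside the Nkg7 gate lay 137, 65 and 323 cells with 1 Nkg7 UMI, all with the higher CD8a tag. In CPM, the counts of a gene scaled to a total of 1000000 UMIs over the pooled cells, Lef1 stood at 446, 448 and 356 in members and at 467, 537 and 373 in those cells. Ccr7 stood at 379, 288 and 238 CPM in members and at 328, 342 and 203 CPM with 1 Nkg7 UMI. Dapl1, a marker of naive CD8 T cells of little known function, stood at 477, 260 and 442 CPM against 625, 474 and 543 CPM. Cells on either side of the Nkg7 gate thus had naive gene levels of like size, with Dapl1 higher outside it. Ccl5, a chemokine of memory and effector cells, was at 32.8, 77.6 and 298 CPM in members and 249, 77.8 and 413 CPM with 1 Nkg7 UMI. Ly6c2, found on most memory CD8 T cells, was at 115, 47.6 and 187 CPM against 138, 174 and 304 CPM. In CD8 T cells with 3 or more Nkg7 UMIs, Ccl5 was at 1790, 632 and 2450 CPM. Since naive gene levels were of like size in members and in cells with 1 Nkg7 UMI, each result was also computed with the Nkg7 condition dropped. This took 818, 518 and 1037 CD8 T cells with the CD8a tag above the CD4 tag, called the wider CD8 gate from here on. The wider CD8 gate was chosen after the data were seen and includes memory-like cells. Without the Nkg7 condition, cells with 3 or more Nkg7 UMIs made up 54.2%, 59.1% and 21.1% of the CD8 T cells. Lef1 stood at 352, 383 and 260 CPM in them. A change of level in the wider CD8 gate therefore cannot be told apart from a change in its make-up.

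The libraries differed in depth and composition. The median member had 4628, 5738 and 3626 RNA UMIs and 1372, 1644 and 1048 genes, and the pooled members held 609620, 399564 and 1442402 UMIs. Mitochondrial genes took 2.11%, 3.39% and 3.75% of these, and ribosomal protein genes 46.9%, 42.9% and 50.9%. The lowest member had 1996, 1238 and 1402 UMIs. The libraries shared 9 to 12 cell barcodes in pairs and no member barcodes.

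Members were a larger fraction at D19, both of members and CD4 T cells together and of all CD8 T cells. Of members and CD4 T cells together, members made up 20.5% at D0 (17.2 to 24.0%), 19% at D5/D6 (15.1 to 23.4%) and 54.5% at D19 (50.7 to 58.3%). Of all CD8 T cells they made up 11% (9.15 to 13.0%), 10.4% (8.15 to 12.9%) and 31.6% (28.9 to 34.3%). The D19 intervals did not overlap those of the earlier libraries, while D0 and D5/D6 overlapped. In the wider CD8 gate the fractions were 64.3%, 63.8% and 77.3% of CD8 and CD4 T cells, and 78.7%, 81.2% and 93.3% of CD8 T cells. The latter fraction is the share of CD8 T cells with no Cxcr3 UMI, whatever their Nkg7, and not a naive share. The D19 library was also the one with the fewest UMIs per cell. When every cell was thinned to 1000 UMIs before the conditions were applied, the fractions were 72.9%, 71.3% and 79.7% of naive CD8 and CD4 T cells and 56.0%, 59.0% and 68.9% of CD8 T cells. The difference of D19 from D0 in the share of members and CD4 T cells was thus 34.1 percentage points by the rule. It was 13.1 in the wider CD8 gate and 6.84 after thinning, and D19 was the highest each time. By the rule this total leaves out CD8 T cells with Nkg7 or Cxcr3 UMIs, so it is not a share of all T cells. After thinning the D19 interval of the share of naive CD8 and CD4 T cells, 76.0 to 83.0%, overlapped the D0 interval of 68.6 to 76.8%. For the share of CD8 T cells the D19 interval, 65.1 to 72.6%, did not overlap the D0 interval of 51.9 to 60.0%. Fewer cells of another type and more of these cannot be told apart in a share.

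Genes that mark the naive state were present in all 3 libraries, most of them within 1.5-fold of their D0 level. Cd8b1, which the rule used, was at 686, 851 and 844 CPM at D0, D5/D6 and D19. Cd8a, the alpha chain of the coreceptor, was at 382, 303 and 225 CPM, the one gene of the pair that was lowest at D19. Its log2 change of D19 over D0 was -0.74 (-1.01 to -0.51), and -0.87 in the wider CD8 gate. Among members with the higher CD8a tag the Cd8a change was -0.94. With 1, 2 and 3 or more Nkg7 UMIs Cd8a went from 432, 415 and 431 CPM at D0 to 229, 221 and 225 CPM at D19. Here and in what follows 10 CPM were added before log2, a change called a rise or a fall is at least 1.5-fold, and the interval is that of the bare ratio of UMIs, so in low genes it can lie beyond the damped change. Lef1 and Tcf7, which encode the transcription factors LEF1 and TCF1, were at 446, 448 and 356 CPM and at 310, 353 and 221 CPM, and neither moved by 1.5-fold from D0. Foxp1 was at 272, 308 and 258 CPM and Igfbp4, a binding protein of insulin-like growth factors found in naive T cells, at 153, 188 and 155 CPM. Dapl1 fell at D5/D6 by 0.85 on the log2 scale and was back near its first level at D19. In CD4 T cells its level went from 413 to 251 and 380 CPM, so the dip was present in both T cell classes. Among members with the higher CD8a tag it was -0.47, inside the fold, and the members without that tag held 57.9 CPM of Dapl1 at D5/D6. It was also shallower in the wider CD8 gate, where Dapl1 was at 552, 465 and 476 CPM and the D5/D6 change was -0.24. Satb1, a chromatin organiser, was at 251, 403 and 250 CPM, a rise of 0.66 at D5/D6 (0.35 to 1.01) beside 0.37 in CD4 T cells and 0.43 in B cells. Over the 15 measured genes of the naive list the median log2 change was 0.01 at D5/D6 and -0.11 at D19, where the median over all genes was 0.04 and -0.14. The list's D19 median became 0.06 when totals left out ribosomal protein and mitochondrial genes.

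After thinning each cell to 1000 UMIs, Lef1 was detected in 38.1%, 49.3% and 27.8% of members and in 0.461%, 0.818% and 0.351% of B cells, which should lack it. Before thinning the median depths were 4628, 5738 and 3626 UMIs for members and 3314, 3844 and 2100 for B cells, and Lef1 was then seen in 102, 54 and 242 members. Dapl1 was detected in 30.5%, 20.3% and 29.7% of thinned members and in at most 0.483% of thinned B cells. Both naive genes were thus well above their share in B cells. In thinned CD4 T cells Lef1 was detected in 39.4%, 36.6% and 31.0% and Dapl1 in 23.5%, 15.3% and 24.2%. These shares were of like size to those of members, so neither gene was particular to them.

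Entry and exit receptors did not move together. Ccr7 was at 379, 288 and 238 CPM and fell by 0.65 at D19, when it fell by 0.60 in CD4 T cells and by 1.11 in B cells. Klf2, which encodes a factor that drives S1pr1, was at 1386, 841 and 722 CPM. It fell by 0.71 at D5/D6 and by 0.93 at D19, and fell at both times in CD4 T and B cells as well. S1pr1 stood at 394, 368 and 389 CPM, nearly level while Klf2 was falling. The CD197 tag, which reads CCR7 on the surface, had a median of 1 UMI or less in every library in members, CD4 T cells and B cells alike, so it carried no usable signal. Among the 14 genes of the homing list, 2 rose and 4 fell at D19, where 5.89% of all measured genes rose and 15.1% fell. Itgb7, a beta chain of gut-homing integrins, went from 179 and 145 to 78.3 CPM, a change of -1.10 beside -1.13 in CD4 T cells and -1.35 in B cells. Gpr18, a chemoattractant receptor, went from 91.9 and 57.6 to 41.6 CPM, a change of -0.98. For Gpr18 this was -0.43 in the wider CD8 gate and -0.51 with cells thinned before selection, both inside the fold. Itgb1, the beta 1 integrin chain that is higher in memory cells, rose by 1.44 in members, from 9.84 to 43.7 CPM, but was at 49.5, 56.8 and 48.2 CPM in the wider CD8 gate.

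**Figure D2:**
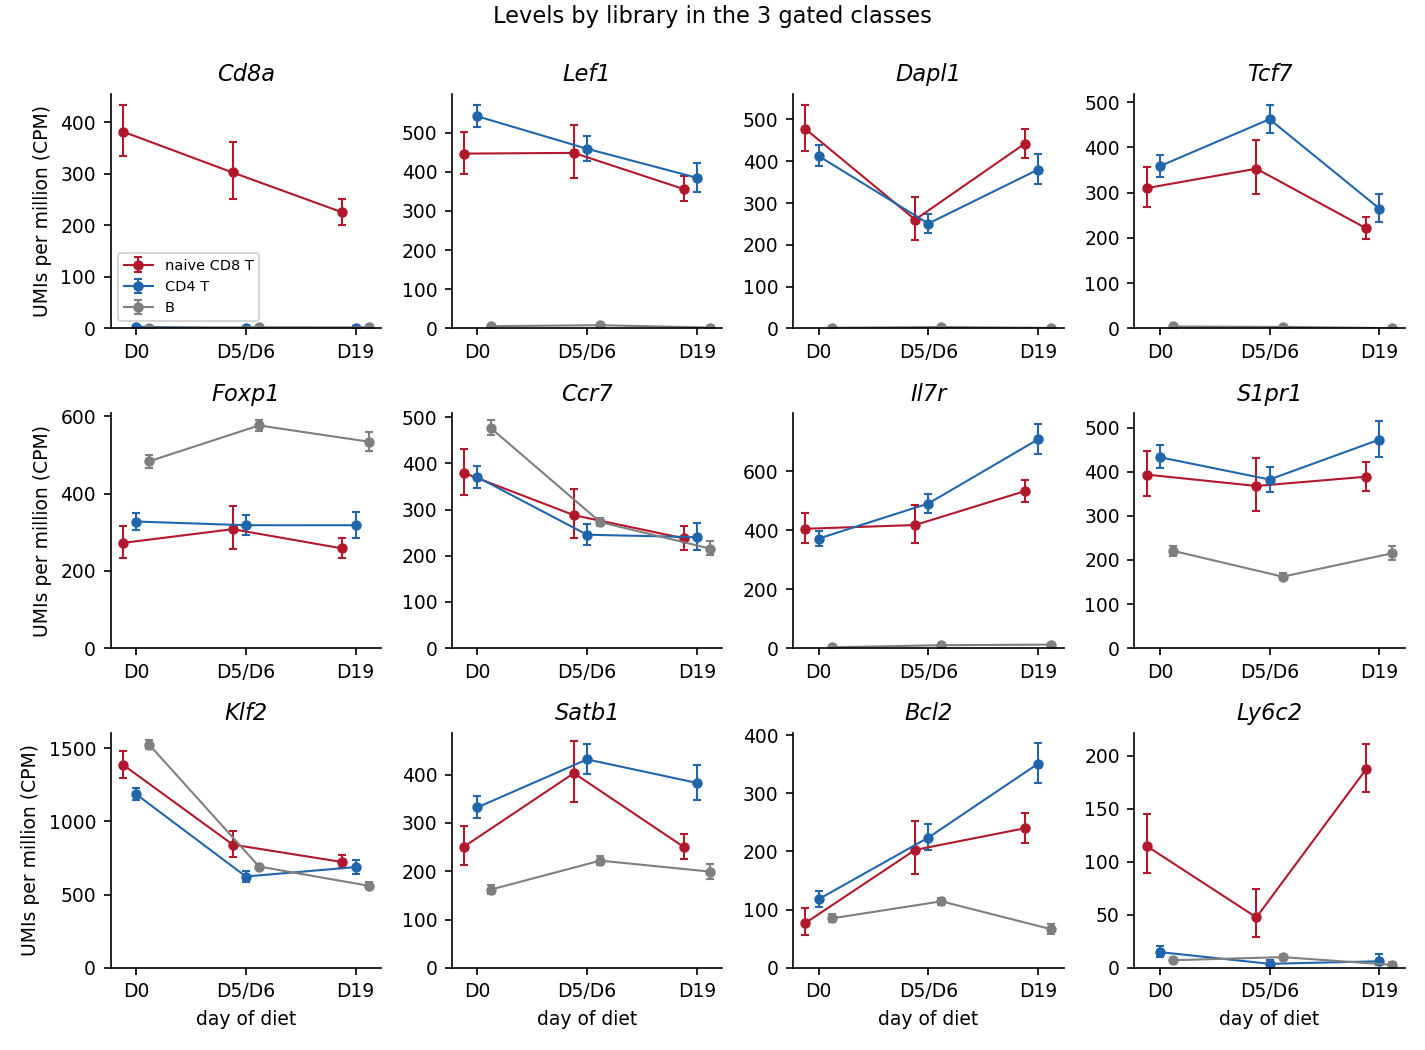
Levels of 12 genes in the 3 libraries for members (red), CD4 T cells (blue) and B cells (grey), in CPM with exact 95% Poisson intervals of the UMI count. Cd8a declined from 382 to 225 CPM in members, Bcl2 was at 77.1, 203 and 240 CPM, and Klf2 declined in all 3 classes.

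Bcl2, which encodes a survival protein sustained by interleukin 7, had the largest difference among the survival genes. It was at 77.1 CPM (56.6 to 103) in 47 UMIs at D0, at 203 CPM in 81 UMIs at D5/D6 and at 240 CPM in 346 UMIs at D19. D0 was the low library and its interval did not overlap those of the others. The change was 1.29 (0.86 to 1.95) at D5/D6 and 1.52 (1.19 to 2.11) at D19. In CD4 T cells Bcl2 changed by 0.87 and 1.496, while in B cells it changed by 0.39 and -0.32. In the wider CD8 gate, where D0 held 169 CPM, the changes were 0.74 and 0.63, and among members with the higher CD8a tag 1.72 and 1.64. With cells thinned before selection the D19 change of Bcl2 was 0.56, inside the fold. Thinned members with a Bcl2 UMI made up 3.39%, 17.4% and 20.2%. Il7r, the receptor chain itself, was at 405, 418 and 533 CPM, within the fold in members, while in CD4 T cells it rose by 0.91 at D19. Of the 7 measured genes of the Bcl2 family list, 2 rose and 3 fell at D19, beside 5.89% and 15.1% of all genes. Bbc3, which encodes the pro-death protein PUMA, rose by 0.84, but by 0.20 with cells thinned before selection. Mcl1, a further survival protein, fell by 1.07 from 323 to 149 CPM. Bax, an effector of cell death, fell by 0.67. The remaining fall, of 0.64, was that of Bcl10, which the list held but which is not a Bcl2 family gene.

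Genes of activated and memory cells ranged from a few UMIs to the level of naive genes. Cd44, the classical memory marker, was at 6.56, 12.5 and 8.32 CPM, in 3, 4 and 10 members. Eomes was found in 3, 2 and 5 members. Cd69 stood at 290, 330 and 203 CPM and Cd5, which tracks the strength of self-recognition, at 91.9, 75.1 and 67.9 CPM, both inside the fold against D0. Nr4a1, an early target of the T cell receptor, was at 42.6, 35.0 and 23.6 CPM and fell by 0.65 at D19, when it changed by -0.39 in CD4 T cells and by -0.80 in B cells. Ly6c2, a surface protein of some naive and most memory CD8 T cells, was at 115, 47.6 and 187 CPM, lowest at D5/D6. It changed by -1.12 at D5/D6 and 0.66 at D19 (0.47 among members with the higher CD8a tag), but was nearly level in the wider CD8 gate at 363, 370 and 425 CPM. In CD8 T cells with 1, 2 and 3 or more Nkg7 UMIs Ly6c2 stood at 138, 187 and 484 CPM at D0. There it was at 174, 142 and 482 CPM at D5/D6 and at 304, 445 and 742 CPM at D19. Each of these groups was thus higher at D19 than at D0. Ccl5 was at 32.8, 77.6 and 298 CPM, yet 189 of its 430 UMIs at D19 lay in 1 cell. In the wider CD8 gate Ccl5 was at 1198, 454 and 945 CPM, with changes of -1.38 and -0.34, opposite in sign to the members' 1.03 and 2.85. With 1, 2 and 3 or more Nkg7 UMIs Ccl5 was at 249, 225 and 1790 CPM at D0. In those groups it was at 77.8, 74.2 and 632 CPM at D5/D6 and at 413, 575 and 2450 CPM at D19. Within each group Ccl5 was thus lower at D5/D6 and higher at D19 than at D0. Itgae, which encodes the integrin CD103 of naive and tissue-resident CD8 T cells, was at 29.5, 47.6 and 27.7 CPM, and Il2rb at 24.6, 32.5 and 27.7 CPM.

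Across genes, 3653 passed a mean of 25 CPM over the 3 libraries in members, with the selecting genes left out. At D5/D6 over D0, 473 of them rose (12.9%) and 262 fell (7.17%). At D19 over D0, 215 rose (5.89%) and 550 fell (15.1%), and at D19 over D5/D6, 151 rose (4.13%) and 665 fell (18.2%). The comparisons share libraries, so their counts are not independent of each other. Intervals of the ratio left out no change for 290 and 158, 183 and 531, and 109 and 549 of these. The balance of rises and falls turned on the scaling. With totals that left out ribosomal protein and mitochondrial genes, rises were 52.9%, 54.2% and 51.5% of calls in place of 64.4%, 28.1% and 18.5%, and the median change of D19 over D0 was 0.0015 in place of -0.14. Centring on the median gave 57.1%, 54.1% and 51.5%.

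The genes that moved the same way in members, CD4 T cells and B cells numbered 32 up (0.876%) and 16 down (0.438%) at D5/D6 over D0. There were 54 up (1.48%) and 130 down (3.56%) at D19 over D0, and 24 up (0.657%) and 77 down (2.11%) at D19 over D5/D6. Most of these also moved that way in the wider CD8 gate, 27 and 15, 44 and 119, and 20 and 63 of them.

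**Figure D3:**
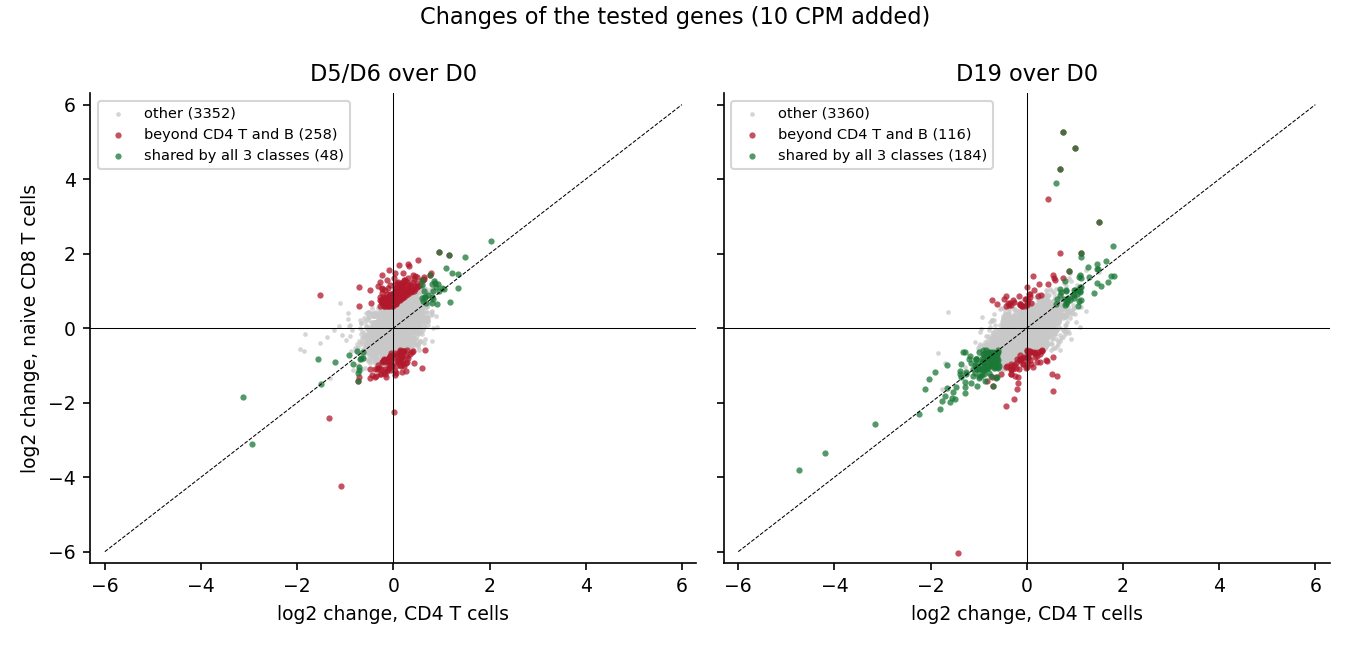
Log2 changes of the 3653 measured genes in members (vertical) against CD4 T cells (horizontal), with D5/D6 over D0 on the left and D19 over D0 on the right. Green points moved at least 1.5-fold the same way in members, CD4 T and B cells, red points moved at least 1.5-fold in members and differed by at least 1.5-fold from both other classes, and genes in both sets are drawn in both colours. At D19 the green points are 54 rises and 130 falls, and some rises lie well above the dashed line of equal change, as for Hba-a1 at 5.27 in members and 0.76 in CD4 T cells, though it was 0.77 in members without its richest cell.

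Heat shock genes, which encode chaperones that refold damaged proteins, were high at D0 and low later in all 3 classes. Hspa1a, which encodes an inducible HSP70, was at 141 CPM in 86 UMIs at D0, at 7.51 CPM in 3 UMIs at D5/D6 and at 0.693 CPM in 1 UMI at D19. Hspa1b was at 98.4, 20.0 and 0.693 CPM, and as a near-identical copy it can trade reads with Hspa1a. The fall at D5/D6 was 3.11 for Hspa1a in members, 2.94 in CD4 T cells and 4.16 in B cells. Hsph1, a partner of HSP70, was at 82.0, 22.5 and 5.55 CPM, and Hspe1, the mitochondrial cochaperonin, at 866, 393 and 397 CPM. Hspa8, the constitutive HSP70, was at 1745, 841 and 435 CPM, and Ahsa1, an activator of HSP90, at 88.6, 32.5 and 25.7 CPM. Of the 12 genes of the list 7 fell at D5/D6, beside 7.17% of all genes, and 12 fell at D19, beside 15.1%. The list median was -0.89 in members, -0.76 in CD4 T cells and -1.07 in B cells at D5/D6, and -1.495, -1.40 and -1.67 at D19.

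Promoters of 3 of these genes that hold the motif are shown because heat shock genes are textbook targets of heat shock factors, which bind inverted repeats of GAA. They were chosen after their motifs and values were seen. The motif GAANNTTC or TTCNNGAA, each of which reads the same on both strands and which can overlap each other, was searched in the 250 bases before the start site. It was found in 4218 of 32851 such windows in the RefSeq table (12.8%). Counted by gene, it was in a window of 3932 of 27025 genes (14.5%) and of 6 of the 9 heat shock list genes that the table held (66.7%). These 6 genes were not separate sequences. A window of Hspd1 overlaps that of Hspe1 on the other strand and holds the same 3 motifs, and the windows of Hspa1a and Hspa1b are near-identical. In the lines that follow, on GRCm38.p6 and read 5′ to 3′ on the gene's own strand, capitals mark the motif. A match in these letters is a description and not a measured site. Hspa1a lies at chr17:34972157-34972406 on the minus strand, Hsph1 at chr5:149636337-149636586 on the minus strand and Hspe1 at chr1:55087898-55088147 on the plus strand.
Hspa1a: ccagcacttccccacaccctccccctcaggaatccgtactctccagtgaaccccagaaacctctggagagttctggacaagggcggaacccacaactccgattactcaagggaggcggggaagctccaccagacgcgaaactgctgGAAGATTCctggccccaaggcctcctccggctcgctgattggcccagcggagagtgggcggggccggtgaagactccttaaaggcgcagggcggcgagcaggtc
Hsph1: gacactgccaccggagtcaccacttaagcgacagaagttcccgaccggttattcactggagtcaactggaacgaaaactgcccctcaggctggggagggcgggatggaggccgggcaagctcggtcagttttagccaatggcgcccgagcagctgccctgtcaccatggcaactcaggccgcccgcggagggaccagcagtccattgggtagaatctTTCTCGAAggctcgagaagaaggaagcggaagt
Hspe1: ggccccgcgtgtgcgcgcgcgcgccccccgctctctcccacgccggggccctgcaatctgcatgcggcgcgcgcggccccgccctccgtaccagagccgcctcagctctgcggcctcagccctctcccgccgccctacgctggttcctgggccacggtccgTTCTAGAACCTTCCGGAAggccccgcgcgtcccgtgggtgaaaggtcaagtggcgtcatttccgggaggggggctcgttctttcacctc
Hspa1a and Hsph1 each held 1 motif and Hspe1 held 3 in a row. Dnajb1, Hspa5 and Hsp90b1 held none in these windows, and Dnajb1 fell by 1.95 at D19, more than the fall of 1.11 for Hspe1.

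Cold shock genes ran the other way. Rbm3, an RNA-binding protein made at mild cold, was at 400, 658 and 936 CPM and Cirbp, its relative, at 95.1, 115 and 269 CPM, both in ascending order of day. At D19 Rbm3 rose by 1.21 in members, 1.45 in CD4 T cells and 1.41 in B cells, and Cirbp by 1.41, 1.75 and 1.49. Whether handling temperature or time between node and lysis moved with the libraries was not tested.

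Immediate early genes, which respond to stimulation or dissociation within minutes, had 8 of 14 falling at D19 in members, beside 15.1% of all genes, and none rising. Fos and Fosb, AP-1 genes named after their values were seen, did not pass the fold in members, at 0.18 and 0.11, beside -0.77 and -0.52 in CD4 T cells and -1.02 and -0.59 in the wider CD8 gate. Jun was at 477, 250 and 146 CPM and Jund at 727, 691 and 295 CPM, both encoding subunits of the AP-1 factor. Klf6 was at 254, 198 and 118 CPM, and Btg2, which restrains proliferation, at 266, 248 and 135 CPM. The list median at D19 was -0.62 in members, -0.64 in CD4 T cells and -0.74 in B cells, and at D5/D6 -0.20, -0.59 and -0.53.

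Further lists had medians under that of all genes at D19 in all 3 classes, where 15.1% of all measured genes fell in members. Of the 17 genes of MHC class I presentation 4 fell and none rose, with list medians of -0.34, -0.52 and -0.67 in members, CD4 T and B cells. H2-K1 was at 1585, 1349 and 851 CPM, H2-D1 at 1701, 1104 and 851 CPM, and H2-Q7 at 528, 430 and 248 CPM, the first pair encoding the classical class I heavy chains. Psmb10, a subunit of the immunoproteasome, was at 146, 100 and 83.9 CPM. Glycolysis genes had list medians of -0.60, -0.68 and -0.70, with 4 of 8 falling in members, among them Pkm at 156, 160 and 72.8 CPM and Pgam1 at 65.6, 47.6 and 31.2 CPM. The translation and nucleolus list had medians of -0.53, -0.35 and -0.36. There 5 of 11 fell, led by Ran, a nuclear transport GTPase, at 407, 273 and 185 CPM, and Nop56, a nucleolar protein, at 130, 153 and 59.6 CPM. The 8 GIMAP genes, which encode GTPases that sustain lymphocyte survival, had medians of -0.43, -0.47 and -0.37. Of these, Gimap7 fell by 1.41 and Gimap4 by 0.71 (-0.13 among members with the higher CD8a tag), while Gimap5 moved the other way within the fold, from 151 to 214 CPM.

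The T cell receptor list held 18 measured genes, of which 4 fell at D19 and none rose, beside 15.1% falling among all genes. Its median was -0.46 in members and -0.33 in CD4 T cells. Lck, the kinase that phosphorylates the CD3 chains, was at 326, 385 and 184 CPM, and Trac, the constant region of the receptor alpha chain, at 704, 683 and 463 CPM. Cd6, an adhesion receptor that tunes signalling, was at 64.0, 65.1 and 38.1 CPM, a fall of 0.62 that vanished to 0.01 among members with the higher CD8a tag. Cd8a was the remaining gene of the 4. Several of the smaller D19 falls ended inside the fold when totals left out ribosomal protein and mitochondrial genes. They were then -0.49 for Ccr7, -0.43 for Trac (and -0.40 among members with the higher CD8a tag), -0.57 for Gimap4, -0.58 for Cd8a and -0.55 for Bax, while Lck remained at -0.65, H2-K1 at -0.72 and Klf2 at -0.77. Cd8a lay at the edge of the fold there, and with the main totals was -0.94 among members with the higher CD8a tag.

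Interferon genes were mixed. Of the 19 measured genes of the type I list 1 rose and 7 fell at D19, beside 5.89% and 15.1% of all genes, and the list median was -0.11 in members, -0.18 in CD4 T cells and -0.73 in B cells. The members' median turned to 0.02 with totals that left out ribosomal protein and mitochondrial genes. Isg15, a ubiquitin-like antiviral protein, was at 54.1, 25.0 and 20.1 CPM. Bst2, which tethers budding virus, was at 171, 57.6 and 87.4 CPM, and Ifi27l2a at 353, 188 and 177 CPM. Ifit3 was found in 5, 1 and 9 members. D0 was the high library for each of these 4 genes.

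Of 10 glucocorticoid response genes 5 rose and 1 fell at D5/D6, beside 12.9% and 7.17% of all genes. The list median was 0.56 in members, 0.35 in CD4 T cells, 0.44 in B cells and 0.22 in the wider CD8 gate. Ddit4, which restrains mTOR signalling, was at 37.7, 90.1 and 74.9 CPM and Fkbp5, a negative regulator of the glucocorticoid receptor, at 11.5, 47.6 and 37.4 CPM. Pik3ip1, an inhibitor of PI3 kinase, was at 65.6, 113 and 125 CPM. Cebpb fell by 1.01 in members, from 70.5 to 30.03 CPM, and rose by 0.77 in B cells. Of the 14 measured genes of the cytokine receptor list 6 rose and none fell at D5/D6, beside 12.9% and 7.17% of all genes. That list also held Socs1 and Socs3, which encode suppressors of cytokine signalling and not receptors. Il6st, the shared chain of the interleukin 6 receptor family, was at 37.7, 72.6 and 40.2 CPM and Il4ra at 27.9, 57.6 and 19.4 CPM, both highest at D5/D6. Their D5/D6 changes were 0.57 and 0.18 in the wider CD8 gate, and the list median was 0.16 in place of 0.27. In the naive list Ets1, a factor for T cell development, was at 340, 581 and 315 CPM and Bach2, a repressor of effector genes, at 45.9, 87.6 and 50.6 CPM, with D5/D6 changes of 0.48 and 0.44 in the wider CD8 gate against 0.76 and 0.80 in members.

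The remaining programme lists had few measured genes, and their counts stand beside 12.9% rising and 7.17% falling among all genes at D5/D6, and 5.89% and 15.1% at D19. Cell cycle genes had a median of -0.59 at D5/D6, with 3 of 6 falling, beside 0.11 in CD4 T cells and -0.24 in the wider CD8 gate. Early targets of the T cell receptor had medians of -0.23 and -0.17 at D5/D6 and D19, with 0 and 1 of 5 falling. The interferon gamma list was at 0.14 and 0.09 with 8 genes and cholesterol synthesis at 0.17 and -0.02 with 3. The memory and effector list was at 0.11 and 0.36, with 2 of 8 rising at each time and 2 and 1 falling. Among members with the higher CD8a tag its medians turned to -0.30 and -0.45, and in the wider CD8 gate to -0.30 and -0.33. With the tag the D5/D6 medians also turned to -0.04 for interferon gamma and -0.05 for cholesterol synthesis, and the D19 median of cholesterol synthesis to 0.08.

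**Figure D4:**
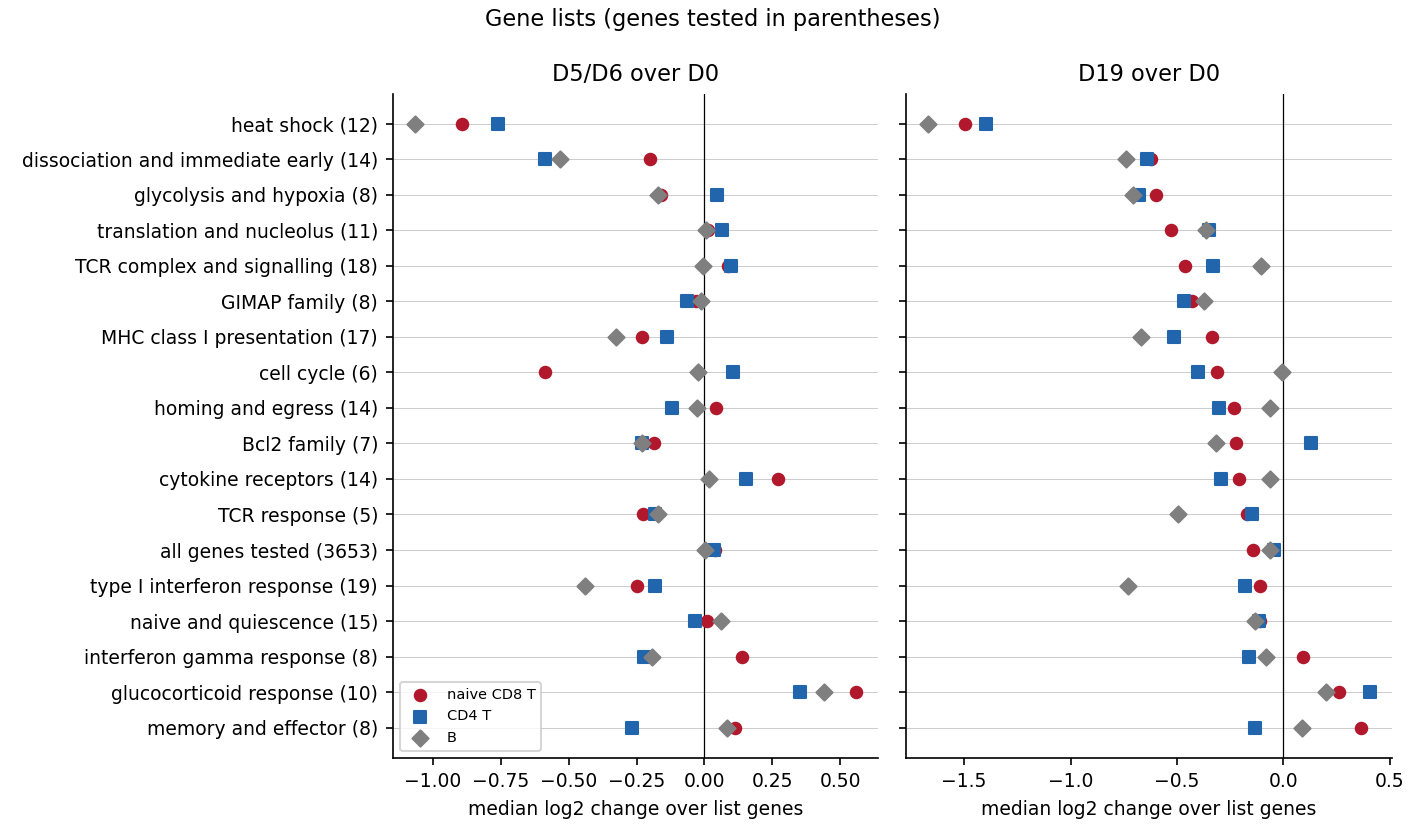
Median log2 change over the measured genes of each list in members (red circles), CD4 T cells (blue squares) and B cells (grey diamonds), with D5/D6 over D0 on the left, D19 over D0 on the right and the number of measured genes in parentheses. The heat shock list lies lowest in members at both times, at -1.495 at D19, and the median over all 3653 genes lies near 0.

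A few transcripts set the libraries apart in every class. Gm42418 and AY036118, which are annotated over ribosomal RNA repeats, were at 6908, 34903 and 1381 CPM and at 407, 1264 and 83.2 CPM in members. Lars2, the mitochondrial leucyl-tRNA synthetase, was at 141, 558 and 51.3 CPM. D5/D6 was the high and D19 the low library for each. The changes of Gm42418 at D5/D6 were 2.34, 2.03 and 2.09 in members, CD4 T and B cells, and at D19 -2.31, -2.24 and -2.37. Their part in the other changes was not tested. Pag1, an adaptor that restrains Src kinases, was at 19.7, 105 and 36.1 CPM and rose in all 3 classes at D5/D6. At D19 over D5/D6 the histone genes Hist1h1c and Hist1h1e fell by 1.67 and 1.71, and Klhdc1, at 21.3, 27.5 and 136 CPM, and Snhg9, at 23, 17.5 and 76.3 CPM, rose by 1.96 and 1.65.

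Markers of other cell types were present in members. CD4 T cell markers summed to 207, 280 and 131 CPM in members and to 466, 378 and 470 CPM in CD4 T cells. None of those 8 markers was at 0 in members of any library. Foxp3 is among them, while the CD4 T cells were chosen without it. The 9 genes of the hepatocyte and red cell list summed to 86.9, 145 and 3166 CPM in members, against 5628, 6514 and 10093 CPM in CD4 T cells and 15644, 16683 and 53929 CPM in free RNA. Hbb-bs was at 45.9, 55.1 and 1575 CPM in members, but 2131 of its 2272 UMIs at D19 came from 1 cell, and without that cell the D19 change was 0.99 in place of 4.82. Without the richest cell the D19 changes of Hba-a1, Hba-a2 and Hbb-bt were 0.77, 0.19 and -0.26 in place of 5.27, 4.27 and 3.48, so the D19 sum of the list rests mainly on single cells. The hepatocyte genes Alb, Apoa1, Apoa2, Ttr and Serpina1c were at 0 in members of all 3 libraries. B cell markers summed to 1042, 916 and 549 CPM in members and 51552, 41042 and 36601 CPM in B cells. Of those 13 markers 4, 1 and 1 were at 0, among them Pax5 at D0 and D19. Dendritic and myeloid markers summed to 361, 218 and 282 CPM with 5, 7 and 5 of 12 at 0. NK and cytotoxic markers summed to 323, 288 and 581 CPM, with Ncr1 and Klrb1c at 0 throughout, γδ T cell markers to 4.92, 15.0 and 12.5 CPM with none of 9 reaching the level filter, and stromal markers to 44.3, 67.6 and 45.8 CPM with Pdpn and Col3a1 at 0. Dcn, a fibroblast proteoglycan outside those lists, had no UMI at D0 and 1 at D5/D6, and 199 of its 200 UMIs at D19 came from 1 cell.

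Genes that moved in members by at least 1.5-fold more than in both CD4 T and B cells were searched for next. At D5/D6 over D0 there were 167 up (4.57%) and 91 down (2.49%). At D19 over D0 there were 46 up (1.26%) and 70 down (1.92%), and at D19 over D5/D6 41 up (1.12%) and 144 down (3.94%). Few were as far from CD4 T and B cells in the wider CD8 gate, 1 and 0 at D5/D6 over D0, 1 and 2 at D19 over D0, and 2 and 4 at D19 over D5/D6. Leaving out, for each gene, the cell with most of its UMIs left 131 and 76, 36 and 45, and 28 and 97, and 118 and 64, 30 and 50, and 27 and 104 were as far among members with the higher CD8a tag. These genes were picked for large changes in few cells, so smaller changes in another set of cells are built into the choice.

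The genes named here lay farthest from the nearer of the other classes, among those whose interval left out no change and whose level in the higher library was above free RNA. Among the rises at D5/D6, Rpl36a-ps1, a ribosomal pseudogene, went from 13.1 to 72.6 CPM and Zfp329 from 6.56 to 45.0 CPM. Smurf2, a ubiquitin ligase of the TGF-beta pathway, went from 16.4 to 75.1 CPM and Dpp4, the peptidase CD26, from 9.84 to 52.6 CPM. Their changes were 1.84, 1.73, 1.69 and 1.66, and in the wider CD8 gate 0.60, 0.42, 0.59 and 0.70. Tars, a threonyl-tRNA synthetase, rose by 1.55, Lonp2, a peroxisomal protease, by 1.48, Gm20186 by 1.43, and Slfn5, an interferon-inducible Schlafen protein, by 1.09. These were 0.20, 0.08, -0.05 and 0.19 in the wider CD8 gate. Ifnar1, a chain of the type I interferon receptor, was at 19.7, 65.1 and 43.7 CPM, a rise of 1.34 at D5/D6 and 0.85 at D19, against 0.29 and 0.07 in the wider CD8 gate. Ctla4, an inhibitory receptor of activated and regulatory T cells, was at 26.2, 70.1 and 40.2 CPM, with 12 of its D5/D6 UMIs in 1 cell.

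Xcl1, a chemokine of activated CD8 and NK cells, had the largest fall, from 973 CPM at D0 to 42.5 and 4.85 CPM. With Cd44, Il2rb, Ly6c2, Eomes and Ccl5 required at 0 as well, its D5/D6 change turned to 1.41. At D0 its 593 UMIs came from 4 cells and 507 of them from 1. Xcl1 changed by -4.23 and -6.05, and by -2.35 and -3.73 without the cell richest in it. It changed by -1.08 and -2.89 in the wider CD8 gate. Tubb2a, a tubulin, was at 96.8, 12.5 and 18.7 CPM, in 24, 5 and 25 cells, and fell by 2.25 at D5/D6 and 1.89 at D19, and by 0.98 and 0.72 in the wider CD8 gate. Mydgf, a secreted growth factor, was at 73.8, 25.0 and 20.1 CPM and fell by 1.26 and 1.48. The other falls at D5/D6 were those of Nr2c2ap, Mcrip1, Ndufaf2, Zyg11b, Igflr1, Rnf20 and Exosc7, between -1.31 and -1.01 in members and between -0.33 and 0.18 in the wider CD8 gate.

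At D19 over D0, Gm43065 rose by 2.01, from 3.28 to 43.7 CPM, and by 0.97 in the wider CD8 gate. Mylip, a ligase that degrades the LDL receptor, rose by 1.19, Card6 by 0.93 and Irgm1, an interferon-inducible GTPase, by 0.87. Ppp3r1, the regulatory subunit of calcineurin, rose by 0.84, Lars, a leucyl-tRNA synthetase, and Cetn2, a centrin, by 0.78 each, and Tnik by 0.64. All 7 of these changes lay between -0.04 and 0.36 in the wider CD8 gate. Myb, a factor of progenitor and stem-like T cells, fell by 1.62 from 44.3 to 7.63 CPM, in 12 and 8 cells. Ikzf2, which encodes Helios, fell by 1.27 from 41.0 to 11.1 CPM, with 14 of its D0 UMIs in 1 cell, but changed by -0.48, inside the fold, among members with the higher CD8a tag. Neither Ikzf2 nor Mylip was beyond CD4 T and B cells among those members, or with the cell richest in it left out. Ift80, Armc1, Zrsr2, Cdk2ap1 and Bet1l changed by -1.27, -1.07, -1.04, -0.96 and -0.86, and in the wider CD8 gate by -0.54, -0.36, -0.18, 0.06 and -0.05.

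**Figure D5:**
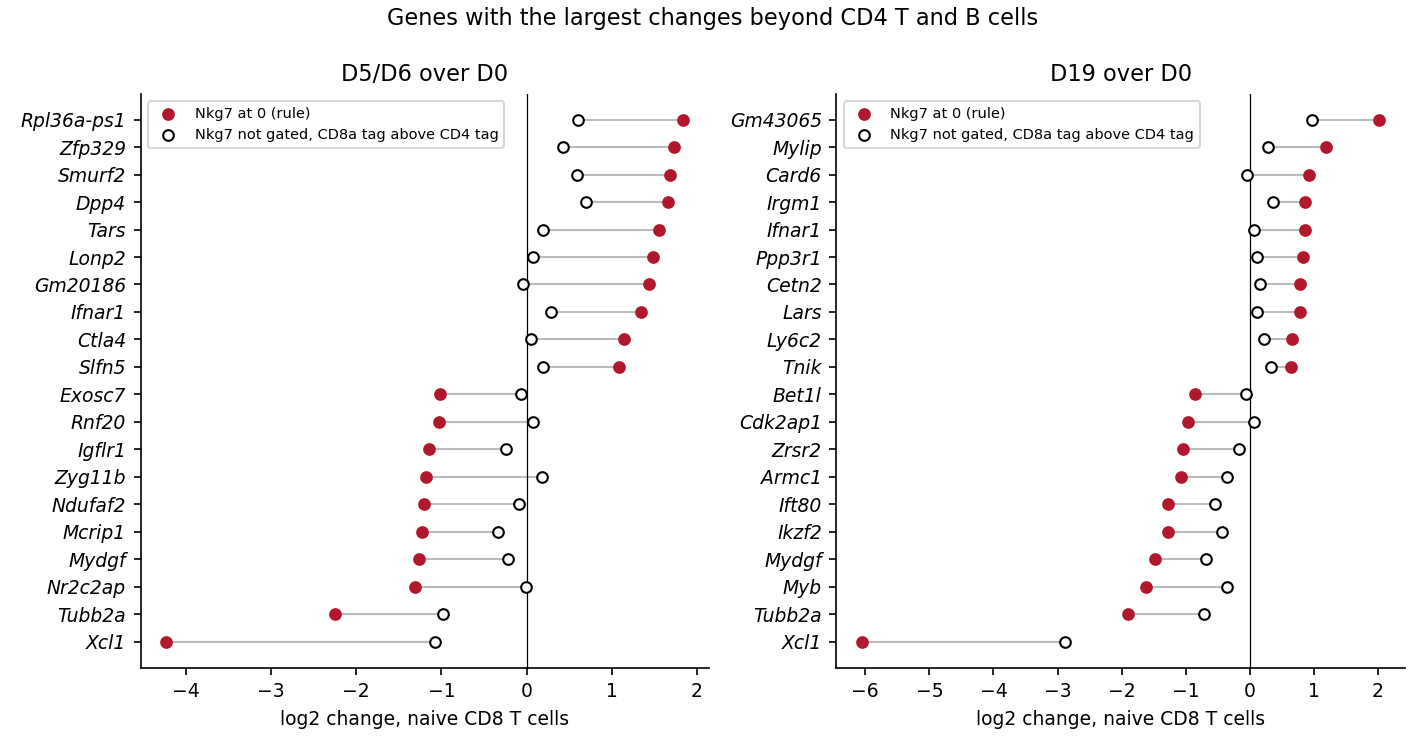
Log2 changes of the 10 rises and 10 falls in members that lay farthest beyond CD4 T and B cells, among genes whose interval left out no change and whose higher level was above free RNA, with D5/D6 over D0 on the left and D19 over D0 on the right, for members (red) and for the wider CD8 gate with the CD8a tag above the CD4 tag (open circles). Almost every open circle lies nearer to 0 than its red point, as for Rpl36a-ps1 at 0.60 against 1.84.

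At D19 over D5/D6, Ly6c2 rose by 1.78, Zyg11b by 1.48, Lcn4 by 0.97, Ifi213 by 0.89 and Exosc7 by 0.86. These were 0.20, 0.26, 0.30, 0.16 and -0.04 in the wider CD8 gate. Rnf19a, Tars, Taf12, Pes1 and Bet1l fell by 1.39, 1.34, 1.27, 1.09 and 0.79, and in the wider CD8 gate changed by -0.37, -0.25, -0.67, -0.13 and 0.10. Tars thus had its high value at D5/D6, at 14.8, 62.6 and 18.7 CPM, from 8, 19 and 25 cells.

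Receptor segments were seen in few members. A Trbv segment, the variable part of the receptor beta chain, was read in 19 of 118, 17 of 69 and 56 of 367 members, and exactly 1 segment in 18, 14 and 51. These cells used 11, 10 and 19 different segments. Trbv16 was in 3 of 18 cells at D0 (16.7%, 3.58 to 41.4%) and in 6 of 51 at D19 (11.8%, 4.44 to 23.9%), the latter the largest count of any segment. No segment stood apart from the rest at this depth.

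The genes that varied most among members differed between libraries. The ratio of variance to mean of UMIs, after scaling for depth, had a median of 1.13, 1.12 and 1.10 over genes. In all 3 libraries the 30 most variable genes included Cd74, H2-Aa, H2-Ab1 and H2-Eb1, which encode the class II pathway of B and dendritic cells, and Cst3, a marker of dendritic cells. The others in that set were Gm42418, Malat1, Tmsb4x and Trbc1, the last a constant region of the receptor beta chain of which each T cell uses 1 of a pair. Cd74 had ratios of 74.4, 40.0 and 41.7. Xcl1 ranked first at D0 with 95.1, Gm42418 at D5/D6 and Hbb-bs at D19 with 921, and Ccl5 was among the 30 at D5/D6 and D19. Jun at D0 and D19, Ikzf2 at D0 and Ctla4 at D5/D6 were among them too. Lef1 had 1.44, 2.10 and 1.51, nearer to the median over genes, while Dapl1 was more uneven at 5.82, 5.23 and 2.60, and was found in 58, 25 and 200 members. Klf2 had 5.98, 4.90 and 2.78.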

How the data were processed

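Per the labels and the study's methods, counts were deposited by the authors as raw Cell Ranger matrices of UMIs per gene or antibody tag and barcode on mm10. Barcodes were filtered and cells chosen as stated, and RNA counts of the 3 lymph node RNA libraries were summed per library and class and scaled to CPM over 32285 genes. CD4 T cells had Cd4 and CD3 UMIs and none of Cd8b1, Nkg7, Cxcr3, Cd79a, Siglech, Fscn1 or Foxp3, and B cells had Cd79a and a further B cell gene and no CD3, Cd8b1, Cd4, Nkg7, Siglech, Fscn1 or Jchain UMI. No doublets were removed in the main setting, and cells with the highest Scrublet scores (scanpy 1.11.5), 0.8% per 1000 cells, were left out as an alternative. The method was run on simulated counts in which UMIs were independent, with no spread between cells or libraries. That run therefore cannot show how the intervals behave in real cells, where such spread exists. With 1 library per time there was no test. Members and the 26 gene lists were chosen with earlier results of these data known. Named genes were 25 fixed genes, the 10 (5 for D19 over D5/D6) per direction farthest beyond CD4 T and B cells by the smaller difference, with an interval leaving out no change and a level above free RNA, the 5 largest shared changes per direction, and up to 4 genes per list, of which some are not reported here. Dropping the Nkg7 condition, requiring the tag with it, and leaving out each gene's richest cell were added after the data were seen. Python 3.11.15, scipy 1.17.1 and pandas 2.3.3 were used.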

Additional observations from a re-analysis of the deposited data

Results flagged for a closer look

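These genes moved at least 1.5-fold in opposite directions in members and in another class of the same libraries. With 1 library per time the difference between classes was not tested. At D5/D6 over D0, the log2 change of Cebpb was -1.01 in members and 0.77 in B cells, H2-Eb1 was 0.90 against -1.52 in CD4 T cells, and Igkc was 1.10 against -0.72 in CD4 T cells. Slfn5 was 1.09 against -0.78 in B cells, and Stmn1, which encodes stathmin, was -1.07 against 0.59 in CD4 T cells. H2-Eb1 and Igkc belong to the B cell markers, which summed to 3825 CPM at D0 and 1212 CPM at D5/D6 in CD4 T cells. In members that sum was 1042 and 916 CPM. B cells made up 26.5% and 43.1% of the cells of those libraries. Whether stray B cell RNA moved these genes was not tested. At D19 over D0, Ikzf2 was -1.27 against 0.62, Klrd1, an NK receptor chain also found on CD8 T cells, was 0.76 against -0.73, and Ly6c2 was 0.66 against -0.62, all against CD4 T cells. At D19 over D5/D6, Bet1l was -0.79 against 0.59 and Ctla4 was -0.67 against 0.82 in CD4 T cells, and Ly6c2 was 1.78 against -0.65 in B cells. Among members with the higher CD8a tag 3 of these members' changes fell inside the fold, at -0.48 for Ikzf2, 0.57 for Klrd1 and 0.47 for Ly6c2 at D19 over D0. In the wider CD8 gate the same changes were -0.49 for Cebpb, -0.37 for H2-Eb1, -0.19 for Igkc, 0.19 for Slfn5, -0.14 for Stmn1, -0.44 for Ikzf2, 0.40 for Klrd1 and 0.22 for Ly6c2 against D0, and 0.10 for Bet1l, 0.05 for Ctla4 and 0.20 for Ly6c2 against D5/D6.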

How the results depend on the processing

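No paired analysis was possible because each time was 1 library. Counts of genes are given for D5/D6 over D0, D19 over D0 and D19 over D5/D6 in that order, where the settings reported gave 735, 765 and 816 genes past the fold and 258, 116 and 185 beyond CD4 T and B cells. With cells thinned to 1000 UMIs before selection they were 237, 504 and 386 past the fold and 26, 32 and 33 beyond. With the Nkg7 condition dropped, chosen after the data were seen, they were 190, 495 and 360, and 18, 10 and 27, and with the CD8a tag required as well 198, 495 and 355, and 20, 11 and 29. With 50 CPM added they were 197, 219 and 197, and 31, 14 and 16. A mean of 10 CPM, which tests more genes, gave 1504, 1310 and 1440, and 660, 260 and 441, and a mean of 100 CPM, which tests fewer, gave 119, 197 and 171, and 19, 11 and 15. The genes beyond were 458, 187 and 325 with at least 2 Cd8b1 UMIs, 411, 178 and 322 with the CD8a tag above the CD4 tag, 521, 236 and 388 with Cd44, Il2rb, Ly6c2, Eomes and Ccl5 at 0 as well, and 406, 222 and 306 with 1 CPM added.

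The difference of D19 from D0 in the members' share of naive CD8 and CD4 T cells, 34.1 percentage points, was 6.84 after thinning, 13.0 without the Nkg7 condition and 13.1 with the tag as well. The difference in their share of CD8 T cells, 20.6 points, was 12.9, 14.3 and 14.7. Without the Nkg7 condition the latter share counts every CD8 T cell with no Cxcr3 UMI. At D5/D6 the members' share of CD8 T cells differed from D0 by -0.60 points, and by 2.98 after thinning.

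Some named changes turned sign. After thinning, at D5/D6 over D0, they were -1.32 for Ccl5, -0.0503 for Ctla4, -0.14 for Gm20186, -0.0519 for Ifnar1, 0.0943 for Ly6c2, 0.15 for Nr2c2ap, 0.0386 for Rnf20 and 0.23 for Zyg11b. At D19 over D0 they were 0.15 for Bet1l, -0.41 for Ccl5 and -0.12 for Ifnar1, and at D19 over D5/D6 0.11 for Bet1l, -0.0503 for Exosc7 and 0.26 for Pes1. Without the Nkg7 condition, at D5/D6 over D0, Ccl5 was -1.39, Ly6c2 0.0141, Rnf20 0.0545 and Zyg11b 0.12, at D19 over D0 Ccl5 was -0.28, Cdk2ap1 0.0188 and Itgb1 -0.0081, and at D19 over D5/D6 Bet1l was 0.0916 and Exosc7 -0.0433. With the tag as well, at D5/D6 over D0, Ccl5 was -1.38, Gm20186 -0.0462, Ly6c2 0.0268, Rnf20 0.0769 and Zyg11b 0.18, at D19 over D0 Card6 was -0.0402, Ccl5 -0.34, Cdk2ap1 0.0598 and Itgb1 -0.0317, and at D19 over D5/D6 Bet1l was 0.10 and Exosc7 -0.0448. With at least 2 Cd8b1 UMIs the D19 change was 0.0679 for Cd6 and 1.31 for the median of the B cell marker list, and with the tag alone Cd6 was 0.0059. With the memory genes at 0 as well, Xcl1 was 1.41 and the dendritic and myeloid marker median 0.25 at D5/D6 over D0, Odc1 was 0.62 and Tyrobp 0.38 at D19 over D0, and Mt1 was -0.19 at D19 over D5/D6. Leaving out the highest Scrublet scores gave -0.13 for Ccl5 at D5/D6 over D0, and leaving out the richest cell gave -0.26 for Hbb-bt at D19 over D0. The cause of these reversals was not tested.

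Over all alternatives, 430 values of single genes moved, 42 past the fold turned sign and 2320 did neither. Of list medians 157 moved by at least 0.2, 2 past the fold turned sign and 733 did neither. Of shares 7 moved and 29 did not, and of counts of genes 48 moved by over 1.5 times and 66 did not. Limits on depth: D5/D6 rests on 69 members, so a gene at 25 CPM stands for few UMIs there, and genes absent from a library may be below detection. UMIs were treated as independent, so intervals leave out the spread between cells, mice and libraries.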
